A study of Mus musculus with 38 samples.

Results

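The bulge is the part of the hair follicle that houses its long-lived stem cells, and the 4 libraries described here were made from wild type bulge stem cells at the ages when dorsal follicles grow (anagen, postnatal day 30, P30) and rest (telogen, postnatal day 56, P56). They are 4 of the 38 libraries of the series, 2 at each age. The cells were sorted from the dorsal skin of K14-H2B-GFP mice as GFP+ CD34+ P-cadherin low cells, where the keratin 14 promoter drives a histone fused to GFP in basal epithelial cells of epidermis and follicle. Bulge cells of Tyr-NrasQ61K;K14-H2B-GFP mice at both ages, 2 libraries each, shared the model to estimate the spread and entered 1 contrast, the interaction of genotype and age. Protein-coding genes outside X and Y with 1 FPKM (fragments scaled to transcript length and library size) or more in at least 2 of the 4 wild type libraries were taken, 11666 of the 20224 genes of the bulge table. At the edge of this filter, 12 genes had a second highest value of 1 FPKM and were taken, and 13 had 0.99 FPKM and were not. The study's methods speak of biological replicates, but nothing in the labels ties the 2 libraries of an age to separate animals, so p-values measure the spread between these libraries, which may be technical.

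A bulge stem cell spends most of its life out of the cell cycle, held by BMP signals, NFATc1, FGF18 and WNT antagonists. At the onset of anagen its neighbours in the hair germ divide first, the bulge follows briefly, and the growing follicle below is then enclosed by an outer root sheath, a companion layer, an inner root sheath and the hair shaft. In late anagen FGF5 acts as a signal that ends growth. The comparison of P56 with P30 therefore sets the resting bulge beside the bulge of a growing follicle.

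Libraries of one age resembled each other more than libraries of different ages. Across the genes taken, log2(FPKM + 1) correlated at 0.993 between the P30 libraries and at 0.965 between the P56 libraries, and at 0.863 to 0.894 between ages (genes are not independent replicates). The difference between the 2 libraries of a group had a standard deviation of 0.234 at P30 and 0.519 at P56 on the log2 scale, so the P56 libraries were less alike. The table holds no read counts, so the depth of each library cannot be read from it, the total FPKM of each library lay between 701329 and 738064, and 12236 to 12731 genes reached 1 FPKM. Xist, transcribed from the inactive X of female cells, was at 0.10 and 0.12 FPKM at P30 and at 30.2 and 24.9 FPKM at P56. The Y-linked Ddx3y was at 18.5 and 17.1 FPKM at P30 and at the lowest listed value, 0.10 FPKM, in both P56 libraries. Age, hair cycle phase and sex therefore cannot be told apart in this comparison.

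Markers of other skin cells were uneven between the libraries. Of 16 markers of myeloid and Langerhans cells, 9 passed the filter, and the summed level of the list was 68.6 and 70.2 FPKM at P30 and 869 and 134 FPKM at P56, with Mrc1 at the lowest listed value in all 4 libraries. Cd74, the invariant chain of MHC class II, was at 15.4 and 18.8 FPKM at P30 and 324 and 44.6 FPKM at P56. It was called higher, and so were H2-Aa, H2-Eb1 and Fcer1g, but each of these 4 calls was lost without either P30 library and without P56 replicate 1, where the log2 change of Cd74 was 1.34. The 17 interfollicular epidermis markers summed to 1584 and 1470 FPKM at P30 and 2166 and 763 FPKM at P56, and 4 of the 12 tested were lower, Dsg1b, Ivl, Casp14 and Tgm1. None of these 4 calls was made without P30 replicate 1 or without P56 replicate 2. The summed level of both lists was thus highest in P56 replicate 1. The median epidermis marker was not, since relative to the P30 mean the median log2 value of the 12 tested genes was -0.158 in P56 replicate 1 and -1.19 in replicate 2. Of 10 fibroblast markers 5 were tested, 1 was higher and 2 were lower, and the list summed to 139 and 134 FPKM at P30 and 72.3 and 68.7 FPKM at P56, with Dcn, a matrix proteoglycan, at 96.9 and 91.8 FPKM at P30 and 10.3 and 4.4 FPKM at P56 (log2 change -3.61 ± 0.40 SE, adjusted p = 3.7e-04). The higher one was Fbln1, the matrix protein fibulin 1, at 21.2 and 21.4 FPKM at P30 and 51.6 and 51.05 FPKM at P56 (log2 change 1.23 ± 0.28 SE, adjusted p = 0.011), a call lost without either P30 library (adjusted p = 0.065 without P30 replicate 1). Acta2, smooth muscle actin, was at 142 and 145 FPKM at P30 and 15.8 and 0.73 FPKM at P56 (log2 change -4.74 ± 0.81 SE, adjusted p = 0.0031), in a list of 8 mural cell markers that summed to 182 and 186 FPKM at P30 and 64.3 and 63.7 FPKM at P56. Of 4 tested mural markers 1 was higher and 2 were lower. The higher one was Cspg4, the proteoglycan NG2 of pericytes, at 14.8 and 14.3 FPKM at P30 and 36.2 and 60.2 FPKM at P56 (log2 change 1.62 ± 0.25 SE, adjusted p = 0.0021), and was called with any 1 wild type library left out. Melanocyte markers summed to 13.3 and 12.6 FPKM at P30 and 47.1 and 61.8 FPKM at P56, and 4 of 5 tested were higher, led by Mitf (1.18 and 0.76 FPKM at P30 and 21.7 and 33.6 FPKM at P56), but 2 without P30 replicate 2, where the calls of Tyrp1 and Dct were lost. The haemoglobin gene Hba-a2 was at 2.95 and 0.1 FPKM at P30 and 25.2 and 27 FPKM at P56, with reads that may be shared with its copy Hba-a1. The lists for T cells, endothelial cells, dermal papilla and for muscle and fat held 3, 2, 1 and 2 tested genes, of which 1 was called, Fabp4 (-1.72, lower), a call lost without either P30 library and without P56 replicate 2 (adjusted p = 0.11 without P30 replicate 2). Cd8a, Hbb-bt and Tnnt3 were at the lowest listed value in all 4 libraries. The part of these cells in the results below was not tested, and in sorted bulk RNA fewer cells of a type and less RNA per cell cannot be told apart.

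A gene was called where limma gave an adjusted p under 0.05 and a change of 2-fold or more on the log2(FPKM + 1) scale, which understates the change of genes with low FPKM. At P56, 1350 genes were higher (11.6% of those tested) and 833 were lower (7.14%), so that 2183 genes (18.7%) were called in all. The median log2 change of all tested genes was 0.15. Of the calls, 61.8% were higher. With each library rescaled to a common median that shift fell by 0.126 and 51.5% of 2117 calls were higher, and with upper quartile scaling it fell by 0.102 and 53.5% were higher, so small changes in a single direction depend on the scaling. Libraries of the 2 ages did not overlap in 75.6% of all tested genes, which makes a lack of overlap alone a weak mark of a difference here. Calls were also made with each wild type library left out in turn, and 1216 genes were called in the same direction in all 4 of these fits, 738 higher and 478 lower. The lower count was 548 without P30 replicate 1, and the higher count 895 without P30 replicate 2. The counts of called members given for gene lists are to be read against the shares of all tested genes above. Below, a call that "held" is one made in all 4 of them.

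**Figure D1:**
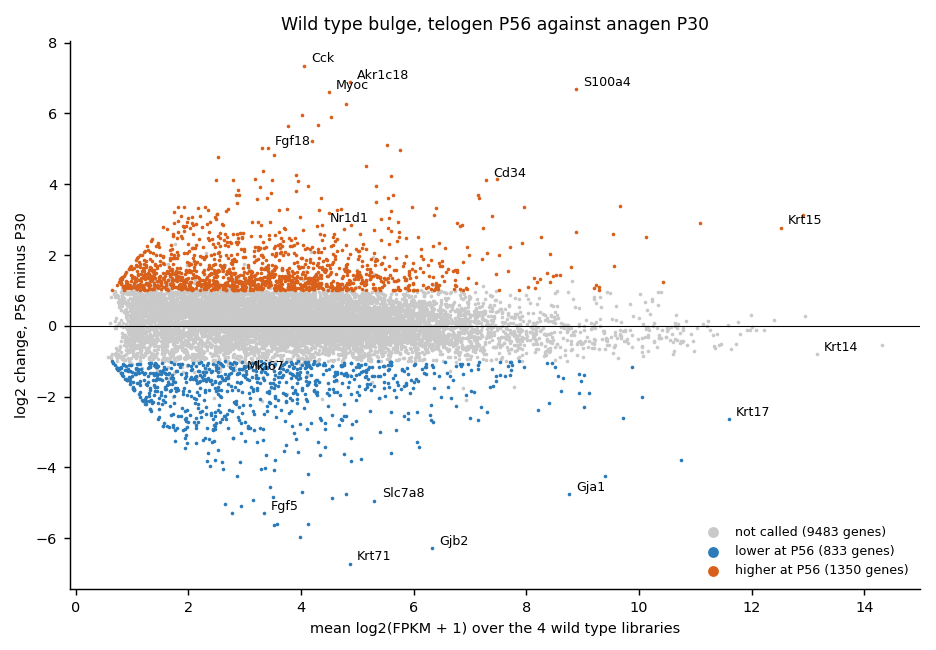
Log2 change of each tested gene (P56 minus P30) against its mean log2(FPKM + 1) over the 4 wild type libraries, with called genes in orange (1350 higher at P56) and blue (833 lower). Cck, Akr1c18, Myoc and S100a4 lie at the top, Krt71 and Gjb2 at the bottom, and Krt14, at the right, is not called.

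The 12 largest rises reached genes of several protein classes. Positions are those of GRCm38. Cck, which encodes the peptide cholecystokinin (chromosome 9, 121489824 to 121495694, minus strand), was at 0.32 and 0.29 FPKM at P30 and 242 and 186 FPKM at P56 (log2 change 7.35 ± 0.24 SE, adjusted p = 3.5e-06). S100a4, a small calcium-binding protein (chromosome 3, 90603771 to 90606045, plus strand), was at 48.3 and 43.05 FPKM at P30 and 3689 and 6246 FPKM at P56 (log2 change 6.69 ± 0.30 SE, adjusted p = 9.8e-06), and was the most abundant of the 12 genes with the largest rise. Akr1c18, which inactivates progesterone and shares sequence with other aldo-keto reductases of its cluster, was at 1.43 and 1.96 FPKM at P30 and 426 and 235 FPKM at P56 (log2 change 6.89 ± 0.29 SE, adjusted p = 8.6e-06). By group means these were rises of 702-fold, 109-fold and 195-fold. Both P56 libraries stood far above both P30 libraries in all 3 genes, where the rule that picked the 12 required libraries that did not overlap. Myoc, for the secreted glycoprotein myocilin, had a log2 change of 6.60, Tgm5, a transglutaminase of the cornified envelope, 6.28, the collagen chains Col8a2 and Col6a1 5.96 and 5.23, and Sncg, gamma-synuclein, 5.90. The remaining rises among the 12 were in Serpina3i, a serine protease inhibitor with close paralogs whose reads may be shared (5.67), Il31ra, a subunit of the receptor for the itch cytokine interleukin 31 (5.64), the keratin Krt24 (5.10) and Chat, choline acetyltransferase (5.03). Tgm5 was at 108 and 552 FPKM in the P56 libraries, the widest gap between P56 replicates, as a ratio, among these 12. All 12 calls held.

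Of the 12 largest falls, 4 were in keratins of the inner root sheath, which moulds the growing hair. Whether sheath or shaft cells entered the sort at P30 was not tested. In sorted bulk RNA their presence and a change within bulge cells cannot be told apart, here and in the sheath and shaft lists below. Krt71, an inner root sheath keratin (chromosome 15, 101733949 to 101743109, minus strand), was at 306 and 294 FPKM at P30 and 2.56 and 1.28 FPKM at P56 (log2 change -6.72 ± 0.28 SE, adjusted p = 8.6e-06). Krt25, Krt27 and Krt28, its type I partners in the same sheath, changed by -5.97, -5.64 and -5.61 on the log2 scale. Gjb2, connexin 26 (chromosome 14, 57098600 to 57104702, minus strand), was at 718 and 710.01 FPKM at P30 and 28.1 and 1.86 FPKM at P56 (log2 change -6.29 ± 0.83 SE, adjusted p = 9.0e-04). Its P56 libraries lay far apart while both stayed below P30. Fgf5, the growth-ending signal of anagen follicles (chromosome 5, 98254184 to 98277030, plus strand), was at 68.1 and 57.5 FPKM at P30 and 0.84 and 0.41 FPKM at P56 (log2 change -5.30 ± 0.26 SE, adjusted p = 1.3e-05). The amino acid transporter Slc7a8 was at 217 and 221 FPKM at P30 and 9.44 and 3.84 FPKM at P56 (log2 change -4.95 ± 0.36 SE, adjusted p = 5.5e-05). Cmah, an enzyme of sialic acid synthesis, and Csn3, a casein, changed by -5.61 and -5.11, and the hair keratin-associated Krtap8-1 by -4.92. The ages were fully separated in each of these genes, which the rule that picked the 12 required. Rnase12, a member of the ribonuclease A family, and Sprr4, a small proline-rich protein, were at the lowest listed value, 0.10 FPKM, in both P56 libraries, against 41.7 and 42.2 FPKM for Rnase12 and 30.0 and 40.4 FPKM for Sprr4 at P30, so no fold is given for them. All 12 of these calls held too.

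**Figure D2:**
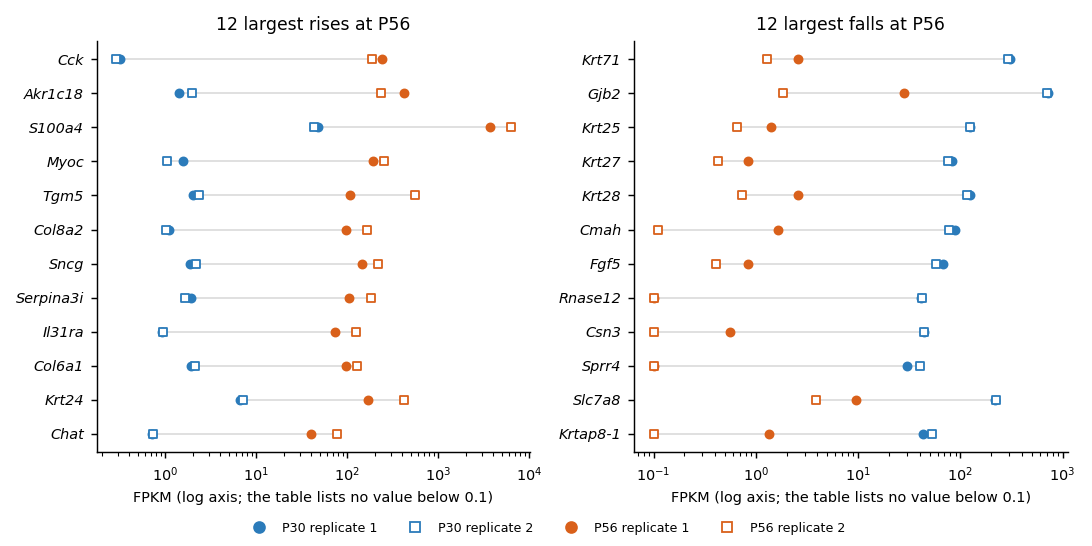
FPKM on a log axis in each of the 4 wild type libraries (circles replicate 1, squares replicate 2; blue P30, orange P56) for the 12 genes with the largest rise (left) and the 12 with the largest fall (right). The libraries of the 2 ages do not overlap in any of the 24 genes, which the rule that picked them required. In Gjb2 the P56 libraries lie far apart (28.1 and 1.86 FPKM).

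The genes that define the sorted cell were present at both ages but at different levels. Cd34, which the sort itself used (chromosome 1, 194938819 to 194961279, plus strand), was at 38.2 and 34.9 FPKM at P30 and 465 and 906 FPKM at P56 (log2 change 4.12 ± 0.35 SE, adjusted p = 1.1e-04). Cdh3, for P-cadherin, low levels of which were also sorted for, was at 85.5 and 83.4 FPKM at P30 and 37.4 and 33.3 FPKM at P56 (log2 change -1.24 ± 0.26 SE, adjusted p = 0.008), a call lost without P30 replicate 1 (adjusted p = 0.053). Krt15, a keratin of the bulge, rose from 2254 and 2248 FPKM to 12592 and 18542 FPKM (log2 change 2.76 ± 0.20 SE, adjusted p = 5.5e-05). Krt14, the basal keratin whose promoter drives the reporter, was at 12499 and 11712 FPKM at P30 and 10135 and 4708 FPKM at P56 and was not called (log2 change -0.81 ± 0.31 SE, adjusted p = 0.079). Of the 22 bulge stem cell genes, all were tested, 8 were higher and 1 was lower, with a median log2 change of 0.61. The others that rose were Nfatc1, a transcription factor of stem cell quiescence (2.83 and 4.16 FPKM at P30 and 55.02 and 81.9 FPKM at P56, log2 change 3.94, adjusted p = 1.9e-04), Ltbp2, Dkk3, Col17a1, Foxc1 and Itga6, and all but Itga6 held. Krt17, a keratin of the outer root sheath, was the member that fell, from 8106 and 7380 FPKM to 1554 and 983 FPKM (log2 change -2.64 ± 0.21 SE, adjusted p = 8.3e-05). Sox9, Lhx2 and Lgr5, regulators or markers of stem cell identity, stayed below 2-fold. Sox9 was at 152 and 141 FPKM at P30 and 184 and 296 FPKM at P56 (log2 change 0.67). Lhx2 was at 47.8 and 45.4 FPKM at P30 and 77.4 and 109 FPKM at P56 (0.96). Lgr5, a receptor for R-spondin, was at 52 and 51.5 FPKM at P30 and 74.4 and 78.1 FPKM at P56 (0.55). All 3 were higher in each P56 library than in either P30 library, but 75.6% of all tested genes also had no overlap between ages. Bmp6, made by the inner bulge layer, was at 3.1 and 3.21 FPKM at P30 and 3.14 and 4.07 FPKM at P56, with libraries that overlapped. In the companion layer and inner bulge list, Krt75 fell from 147 and 138 FPKM to 10.3 and 29.2 FPKM (log2 change -2.95 ± 0.42 SE, adjusted p = 0.0013). Krt80 rose (log2 change 2.49, adjusted p = 0.0021), with 6 of 6 tested.

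Of 10 inner root sheath genes 8 were tested, 7 were lower and none was higher, with a median log2 change of -4.16, and all 7 calls held. Beside the 4 keratins above, Tchh, trichohyalin, changed by -2.71, Krt73 by -2.05, and Krt72 was at the lowest listed value in both P56 libraries. Gata3, a transcription factor of this sheath that the epidermis also uses, was at 98.8 and 104 FPKM at P30 and 204 and 94.6 FPKM at P56 and was not called. Among 17 genes of hair matrix, shaft and cuticle, 12 were tested, 9 were lower and none was higher (median -1.41), and 3 calls held, those of Padi3, Krt83 and Krt81, the last with both P56 libraries at the lowest listed value. The lower count was 3 without either P30 library and 4 without P56 replicate 2. Padi3, a protein arginine deiminase of the shaft, was at 8.51 and 8.45 FPKM at P30 and 0.37 and 0.1 FPKM at P56 (log2 change -2.95 ± 0.42 SE, adjusted p = 0.0012). Krt35 was at 14.4 and 12.7 FPKM at P30 and 2.75 and 0.17 FPKM at P56 and its call was lost without any 1 of 3 libraries (adjusted p = 0.065 without P30 replicate 1). The hair keratins are near copies of each other in part, so their separate values are uncertain. In the list of isthmus and sebaceous gland genes, 3 of 10 were higher and none was lower, and 6 were higher without P56 replicate 1. The 3 were Cidea, a lipid droplet protein (2.37), Gata6 (2.19) and Pparg, a nuclear receptor of sebocytes and adipocytes, which was at 0.1 and 0.16 FPKM at P30 and 2.52 and 5.91 FPKM at P56 (log2 change 2.13 ± 0.32 SE, adjusted p = 0.0016).

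Gap junction genes changed in opposite directions. Gja1, connexin 43, was at 2287 and 2201 FPKM at P30 and 137 and 48.95 FPKM at P56 (log2 change -4.76 ± 0.42 SE, adjusted p = 1.2e-04). Its neighbour in function Gjb6, connexin 30, fell with Gjb2 (log2 change -4.18, adjusted p = 3.7e-04). Gjb5 rose, from 10.3 and 10.5 FPKM to 45.6 and 36.3 FPKM (log2 change 1.88 ± 0.29 SE, adjusted p = 0.0019). Of 22 cell junction genes 21 were tested, 3 were higher and 6 lower (median -0.33). Cldn4, a tight junction claudin, was lower at 62.6 and 67.1 FPKM at P30 and 10.2 and 8.84 FPKM at P56 (log2 change -2.64 ± 0.22 SE, adjusted p = 9.3e-05). The desmosomal genes Jup, Dsc3, Dsp and Pkp3 had log2 changes between -0.01 and 0.59 and were not called.

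The epithelium rests on a basement membrane to which bulge cells attach through hemidesmosomes, and the genes of that anchor were among those that rose. Of 25 basement membrane genes 18 were tested, 9 were higher and 4 lower (median 0.81), and 6 of the rises and 2 of the falls held. Col17a1, the collagen of the hemidesmosome, was at 129 and 125 FPKM at P30 and 675 and 786 FPKM at P56 (log2 change 2.51 ± 0.23 SE, adjusted p = 1.5e-04). Lamb3, a chain of the laminin that binds hemidesmosomes, was at 43.4 and 40.4 FPKM at P30 and 247 and 365 FPKM at P56 (log2 change 2.81 ± 0.21 SE, adjusted p = 6.0e-05). Lama3, another of its chains, was also higher (log2 change 1.40). Col7a1, which forms anchoring fibrils, was at 9.94 and 9.12 FPKM at P30 and 59.1 and 79.4 FPKM at P56 (log2 change 2.72 ± 0.22 SE, adjusted p = 8.9e-05). Npnt, nephronectin, a matrix ligand of integrins, was at 7.58 and 7.18 FPKM at P30 and 63.1 and 105 FPKM at P56 (log2 change 3.30 ± 0.25 SE, adjusted p = 7.0e-05). Falls were in Lamb1, at 60.5 and 60.4 FPKM at P30 and 7.51 and 3.64 FPKM at P56 (log2 change -3.29 ± 0.29 SE, adjusted p = 1.3e-04), in Col4a1 (log2 change -1.55, adjusted p = 0.0024), in Fras1 (log2 change -1.39, adjusted p = 0.0048), whose call was lost (adjusted p = 0.052 without P30 replicate 1), and in Col4a2, whose call was made only without P56 replicate 2 (adjusted p = 0.1 without P30 replicate 1). Of 14 integrins 10 were tested, 3 were higher and none was lower. They were Itgb4, the hemidesmosomal beta chain (41.9 and 40.4 FPKM at P30 and 106 and 137 FPKM at P56, log2 change 1.53, adjusted p = 8.0e-04), Itga2, a collagen receptor (1.89) and Itga6 (1.01, 0.99 without P56 replicate 1, below 2-fold).

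Of 21 other matrix genes 16 were tested, 4 were higher and 5 lower (median -0.02). Postn, periostin, was at 78.9 and 74.8 FPKM at P30 and 681 and 942 FPKM at P56 (log2 change 3.37 ± 0.26 SE, adjusted p = 7.5e-05). Col6a2 rose with Col6a1 (1.81 and 1.58 FPKM at P30 and 41.3 and 49.97 FPKM at P56). Fn1, fibronectin, was at 22.3 and 23.03 FPKM at P30 and 7.44 and 8.61 FPKM at P56 (log2 change -1.39 ± 0.23 SE, adjusted p = 0.0029). Spon1 and Col16a1 changed by -2.60 and -2.05. The call of Tnc, tenascin C (-1.26), was made only without P56 replicate 2 (adjusted p = 0.1 without P30 replicate 1).

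FGF ligands showed 2 rises and 2 falls among 4 tested of 12 listed, and all 4 calls held. Fgf18, a quiescence signal of the telogen bulge (chromosome 11, 33117430 to 33147400, minus strand), was at 0.89 and 0.86 FPKM at P30 and 40.5 and 87.6 FPKM at P56 (log2 change 5.02 ± 0.45 SE, adjusted p = 1.4e-04). It moved opposite to Fgf5. Its ages did not overlap, as in every called gene. Fgf1 was at 0.85 and 0.1 FPKM at P30 and 6.8 and 25.7 FPKM at P56 (log2 change 3.34 ± 0.51 SE, adjusted p = 0.0018). Fgf21 was at 4.96 and 6.15 FPKM at P30 and 0.97 and 0.71 FPKM at P56 (log2 change -1.83 ± 0.32 SE, adjusted p = 0.0033). Among 12 of 14 receptors and feedback genes tested, Fgfr1 rose (43.5 and 42.5 FPKM at P30 and 146 and 273 FPKM at P56, log2 change 2.19, adjusted p = 1.0e-03). Spry2 rose by 1.10 on the log2 scale, while Dusp6, a phosphatase of ERK that FGF and EGF signals induce, fell from 334 and 315 FPKM to 92.2 and 46.4 FPKM (log2 change -2.29 ± 0.32 SE, adjusted p = 0.0012). Spry2 stood below 2-fold without P56 replicate 2. In the EGF receptor family, 10 of 14 were tested and 3 were lower, the ligands Epgn and Hbegf and the feedback inhibitor Errfi1, with log2 changes of -1.65, -1.13 and -1.40. These 3 calls were made only without P56 replicate 1, and the highest adjusted p was 0.18 (Hbegf without P56 replicate 2).

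BMP signals hold the bulge at rest. Of 6 tested ligands of the family 1 was higher and 1 lower, beside 11.6% and 7.14% of all tested genes. Bmp2 was at 3.89 and 3.51 FPKM at P30 and 16.8 and 25.6 FPKM at P56 (log2 change 2.21 ± 0.27 SE, adjusted p = 5.8e-04). Gdf10 was at 14.7 and 13.4 FPKM at P30 and 1.95 and 1.88 FPKM at P56 (log2 change -2.37 ± 0.47 SE, adjusted p = 0.0059), and the other 4 tested ligands of 11 listed were not called. Of 10 inhibitors 7 were tested and 3 were higher, all of which held. Grem1, gremlin, was at 1.23 and 1.13 FPKM at P30 and 44.2 and 82.05 FPKM at P56 (log2 change 4.81 ± 0.36 SE, adjusted p = 5.9e-05). Nog, noggin, was at 0.65 and 0.43 FPKM at P30 and 11.7 and 18.8 FPKM at P56 (log2 change 3.37 ± 0.27 SE, adjusted p = 8.6e-05). Fst, follistatin, was at 24.5 and 24.1 FPKM at P30 and 54.5 and 75.5 FPKM at P56 (log2 change 1.37 ± 0.23 SE, adjusted p = 0.0032). Among 10 receptors and SMADs, 9 were tested and Smad9 was higher (0.3 and 0.37 FPKM at P30 and 3.09 and 3.38 FPKM at P56). Of 8 BMP targets, Msx1 was lower (log2 change -1.26), a call made only without P56 replicate 2, and the 4 Id genes had log2 changes between -0.42 and 0.79.

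WNT ligands start follicle growth and their antagonists restrain it. Of 14 antagonists 8 were tested, 4 were higher and none was lower, all 8 had a log2 change above 0, and the median was 1.19 against 0.15 for all genes. Wif1, WNT inhibitory factor, was at 1.56 and 1.55 FPKM at P30 and 17.1 and 12.3 FPKM at P56 (log2 change 2.60 ± 0.24 SE, adjusted p = 1.5e-04). Sostdc1, which also binds BMPs, was at 106 and 107 FPKM at P30 and 416 and 704 FPKM at P56 (log2 change 2.33 ± 0.26 SE, adjusted p = 3.8e-04). Dkk3 was at 20.03 and 17.3 FPKM at P30 and 146 and 274 FPKM at P56 (log2 change 3.36 ± 0.33 SE, adjusted p = 2.1e-04). Kremen2 was at 0.79 and 1.17 FPKM at P30 and 5.39 and 3.23 FPKM at P56, with its call lost without any 1 of 3 libraries (adjusted p = 0.12 without P30 replicate 1). Of 20 receptors and coreceptors, 4 frizzled genes were higher (Fzd2, Fzd7, Fzd9 and Fzd3, log2 changes of 1.84, 1.55, 1.49 and 1.45) and 2 were lower. Fzd5 was at 25.02 and 24.3 FPKM at P30 and 4.34 and 4.28 FPKM at P56 (log2 change -2.27 ± 0.23 SE, adjusted p = 2.3e-04). Fzd4 was at 9.53 and 8.73 FPKM at P30 and 0.94 and 1.85 FPKM at P56 (log2 change -2.11 ± 0.24 SE, adjusted p = 4.8e-04). All but Fzd9 held (adjusted p = 0.054 without P30 replicate 2). Of 18 ligands 11 were tested, Wnt9a was lower (-1.47) and Wnt10a was higher (17.3 and 14.01 FPKM at P30 and 74.9 and 24.1 FPKM at P56), a call made only without P56 replicate 2, since without P56 replicate 1 its log2 change was 0.60. Among 12 target genes 11 were tested, Nkd1 (2.53) and Axin2 (1.26), 2 feedback inhibitors of the pathway, were higher and Ccnd1 was lower. Axin2 was at 0.78 and 0.87 FPKM at P30 and 4.47 and 2.51 FPKM at P56, and its call was made only without P56 replicate 2 (adjusted p = 0.072 without P30 replicate 1).

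The 9 genes that the study itself names as markers of quiescence, among them Fgf18, Grem1, Nfatc1, Wif1, Col17a1, Foxc1, Bmp2 and Axin2, were all higher at P56 (median log2 change 2.60). They were chosen on these libraries, so their direction is not independent evidence, here or in the other lists that hold them. Ctgf, a secreted matricellular protein that YAP induces, was at 9.16 and 8.23 FPKM at P30 and 212 and 428 FPKM at P56 (log2 change 4.96 ± 0.40 SE, adjusted p = 8.3e-05). Cyr61, its relative, was at 248 and 246 FPKM at P30 and 895 and 694 FPKM at P56 (log2 change 1.67 ± 0.18 SE, adjusted p = 2.9e-04). In the Hippo-YAP list of 14, 13 were tested, 3 were higher and none was lower, Tead4, a DNA-binding partner of YAP, being the other (1.76).

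All 16 genes of the TGF-beta list were tested, 4 were higher and 2 lower (median -0.25). Tgfbi, a secreted protein that TGF-beta induces, was at 57.97 and 54.4 FPKM at P30 and 426 and 565 FPKM at P56 (log2 change 3.10 ± 0.19 SE, adjusted p = 3.2e-05). Ltbp2 (1.02 and 1.36 FPKM at P30 and 16.8 and 32.3 FPKM at P56), Ltbp1 (1.72) and the ligand Tgfb3 (1.51) were higher. Tgfb1 was lower (-1.25) in a call made only without P30 replicate 2 (adjusted p = 0.15 without P30 replicate 1). In the Hedgehog list 12 of 14 were tested and 3 were higher, the coreceptors Boc and Cdon and the feedback inhibitor Hhip. Boc was at 12.04 and 11.3 FPKM at P30 and 50.5 and 73.5 FPKM at P56 (log2 change 2.29 ± 0.23 SE, adjusted p = 2.5e-04). Cdon had a log2 change of 2.35, and Hhip of 1.06 in a call made only without P56 replicate 2. Gli1, the pathway's readout, was at 5 and 6.39 FPKM at P30 and 9.79 and 4.91 FPKM at P56, where the ages overlapped. Of 17 Notch genes 14 were tested, and the calls of Lfng (1.02) and Notch3 (-1.14) did not hold.

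**Figure D3:**
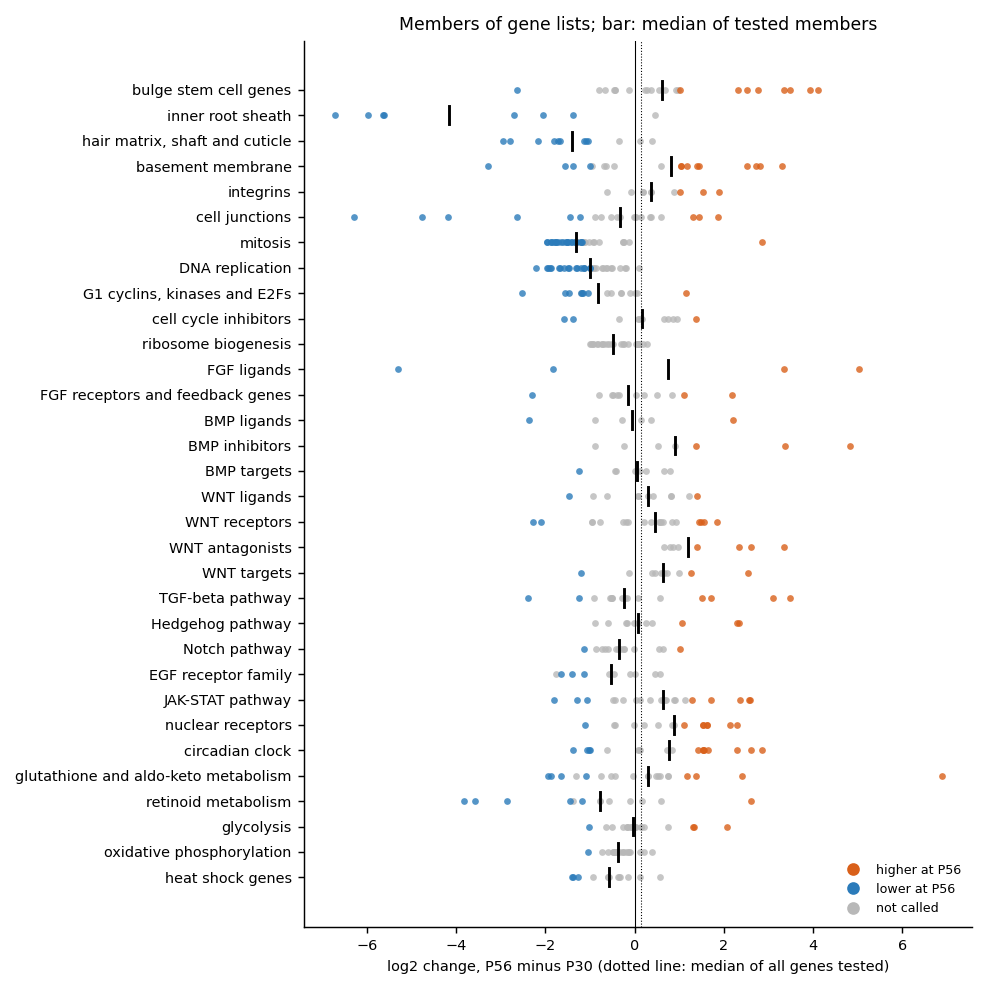
Log2 change (P56 minus P30) of each tested member of 32 gene lists, coloured by call, with a black bar at the median of each list and a dotted line at the median of all tested genes, 0.15. Inner root sheath genes extend farthest to the left (median -4.16), mitosis and DNA replication genes lie nearly all left of 0 (medians -1.31 and -1.01), and WNT antagonists lie right of it (median 1.19).

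Genes of the cell cycle were lower at P56, with a large gap between the P56 libraries. Of 40 mitosis genes 39 were tested, 23 were lower and 1 was higher, and 38 of the 39 had a negative log2 change (median -1.31). Of 33 DNA replication genes all were tested, 17 were lower and none was higher (median -1.01). The 39 mitosis genes lay at a median of -0.79 in P56 replicate 1 and -1.88 in P56 replicate 2 relative to P30, and the 33 replication genes at -0.81 and -1.33. The number of mitosis genes called lower was 1 without P30 replicate 1, 2 without P30 replicate 2, 4 without P56 replicate 2 and 34 without P56 replicate 1, and it was 14 with the 4 wild type libraries alone and 15 with no filter on low values, while the median stayed between -1.88 and -0.79 in the fits that left out 1 wild type library. For DNA replication the count without P30 replicate 1, P30 replicate 2, P56 replicate 2 and P56 replicate 1 was 5, 6, 7 and 22. Other settings raised the count of lower mitosis genes from 23, to 32 under median rescaling, 32 under upper quartile scaling and 30 with a replicate block. For DNA replication these 3 settings gave 19, 19 and 18. The number of genes past the threshold therefore rests on the libraries that enter the fit and on the processing.

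**Figure D4:**
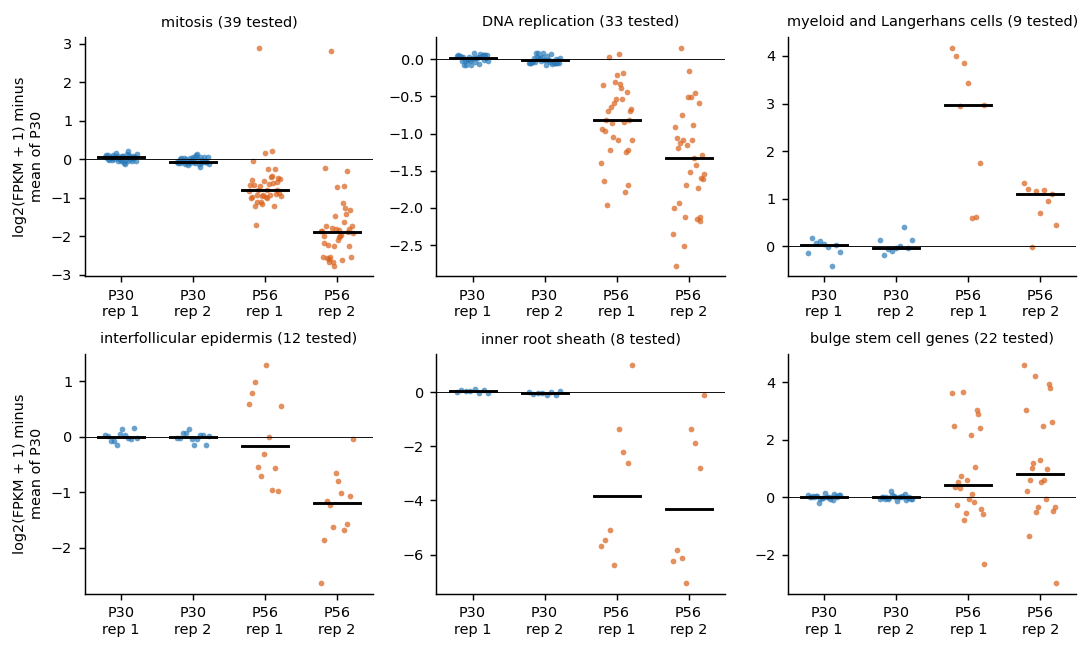
Log2(FPKM + 1) of each tested list member minus its mean at P30, by library, for 6 lists, with a black bar at the median. Mitosis genes are lower in both P56 libraries but by unequal amounts (medians -0.79 and -1.88), myeloid markers are highest in P56 replicate 1 (median 2.97), and inner root sheath genes are similar in both (-3.84 and -4.32).

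Mki67, the proliferation marker, was at 11.5 and 10.4 FPKM at P30 and 5.73 and 2.27 FPKM at P56 (log2 change -1.35 ± 0.34 SE, adjusted p = 0.017). Its call was made only without P56 replicate 1 (adjusted p = 0.097 without P30 replicate 1). Ccnb1, cyclin B1, was at 49.2 and 50.7 FPKM at P30 and 14.7 and 9.99 FPKM at P56 (log2 change -1.95 ± 0.35 SE, adjusted p = 0.004) and was the 1 lower mitosis gene whose call held. Cdca8, a subunit of the chromosomal passenger complex, Cdca3 and Ccna2, cyclin A2, changed by -1.96, -1.88 and -1.88, and all 3 calls were lost without either P30 library (adjusted p = 0.085 without P30 replicate 2). Cdc25b, a phosphatase that activates cyclin-dependent kinases, went the other way at 10.7 and 9.28 FPKM at P30 and 80.7 and 76.7 FPKM at P56 (log2 change 2.86 ± 0.24 SE, adjusted p = 9.4e-05), in both P56 libraries alike. Among replication genes, Mcm5, a subunit of the replicative helicase, was at 59.1 and 55.9 FPKM at P30 and 17.7 and 7.54 FPKM at P56 (log2 change -2.21 ± 0.41 SE, adjusted p = 0.0047). Rrm2, of ribonucleotide reductase, was at 64.7 and 62.1 FPKM at P30 and 17.7 and 13.5 FPKM at P56 (log2 change -1.97 ± 0.30 SE, adjusted p = 0.0018). Mcm10 and Dtl changed by -1.95 and -1.91. These 4 calls held.

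All 16 of the G1 cyclins, kinases and E2Fs were tested, 7 were lower and 1 was higher (median -0.83). The lower count was 4, 3 and 4 without P30 replicate 1, P30 replicate 2 and P56 replicate 2. Ccnd1, cyclin D1, was at 82.8 and 94.6 FPKM at P30 and 41.3 and 34.9 FPKM at P56 (log2 change -1.20 ± 0.16 SE, adjusted p = 0.0011). Ccnd2, cyclin D2, was at 642 and 699 FPKM at P30 and 290.21 and 197 FPKM at P56 (log2 change -1.48 ± 0.33 SE, adjusted p = 0.01), a call lost without P30 replicate 2 (adjusted p = 0.061). Ccnd3 was the higher one, at 53.4 and 57.4 FPKM at P30 and 111 and 141 FPKM at P56 (log2 change 1.16 ± 0.17 SE, adjusted p = 0.0017), and stood just below 2-fold without P56 replicate 2. Ccne1, cyclin E1, was at 12.4 and 10.9 FPKM at P30 and 2.14 and 0.53 FPKM at P56 (log2 change -2.53 ± 0.34 SE, adjusted p = 9.3e-04). Among 13 inhibitors 12 were tested. Rbl2, the pocket protein p130 of resting cells, was higher (4.24 and 4.22 FPKM at P30 and 10.3 and 15.5 FPKM at P56, log2 change 1.38, adjusted p = 0.0028). Cdkn2b, p15, was lower (19.8 and 19.8 FPKM at P30 and 6.55 and 7.29 FPKM at P56, log2 change -1.39, adjusted p = 0.0048), as was Gadd45a (-1.58). Cdkn1a, p21, was at 336 and 304 FPKM at P30 and 434 and 289 FPKM at P56, with overlapping libraries. Cdkn1b, p27, was at 19.5 and 19.1 FPKM at P30 and 31.9 and 33.9 FPKM at P56. Cdkn1c, p57, was at 2.61 and 2.62 FPKM at P30 and 5.28 and 4.11 FPKM at P56. Both were higher in both P56 libraries but below 2-fold, where 75.6% of all tested genes also had no overlap between ages. Cdkn2a was at the lowest listed value in all 4 libraries. Of 13 FOXO and quiescence regulators, Bnip3 (2.43), Txnip (1.41) and Tob1 (1.38) were higher and Sesn3 (-2.08) and Foxo1 (-1.30) lower, and all 5 calls held. Of 25 ribosome biogenesis genes none was called in either direction (median -0.48). Under median rescaling 4 were lower (median -0.61), and under upper quartile scaling 4 (median -0.584). In the main fit the 2 most abundant, Npm1 and Ncl, had log2 changes of -0.83 ± 0.15 and -0.93 ± 0.17 (SE). Their adjusted p was under the threshold (0.004 and 0.0047) but their change was below 2-fold.

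Promoters of mitosis genes carry shared short elements, and RefSeq promoters (GRCm38.p6, 250 bases before to 50 bases after each start) were searched for them on both strands. The CHR element, TTTGAA, was in 24 of the 32 mitosis genes with an entry (75.0%) against 20.2% of all 27025 genes, and the CCAAT box in 27 of 32 (84.4%) against 41.1%. Both were present in 22 of 32 (68.8%) against 7.97%. The E2F elements TTTGGCGC, TTTCCCGC and TTTCGCGC, any 1 of which was enough, were in 11 of 27 replication genes (40.7%) against 2.12%. The E-box CACGTG was in 5 of 16 clock genes (31.2%) against 8.09%, and the D-box TTATGTAA in 1 of 16 (6.25%) against 1.11%. Among the 8821 tested genes with an entry, the shares were 13.9% for the CHR element, 42.9% for the CCAAT box, 5.9% for both, 4.09% for E2F, 11.9% for the E-box and 0.59% for the D-box. Among called genes, 13 of 18 mitosis genes (72.2%) held the CHR element and 6 of 16 replication genes (37.5%) an E2F element. The 18 include Cdc25b, which was called higher. Of all 577 genes called lower with an entry, 19.6% held the CHR element and 5.2% an E2F element. A gene with several starts counted once if any start held the element. Matches of different elements may overlap, and these are matches of letters, not binding sites. The stretches up to the base before the start of 3 mitosis genes are shown with CHR and CCAAT matches in capitals (ATTGG is CCAAT on the other strand), and for Tef, a clock output gene, the stretches before its 2 listed starts with the E-box in capitals. They lie at chr9:70421555-70421731 (minus strand) for Ccnb2, chr4:118437344-118437463 (minus) for Cdc20, chr10:69352913-69353130 (minus) for Cdk1, and chr15:81802536-81802672 and chr15:81811266-81811413 (plus) for Tef. A further TTTGAA of Ccnb2, with its first base at position 5 from the start, lies beyond the stretch shown.
Ccnb2: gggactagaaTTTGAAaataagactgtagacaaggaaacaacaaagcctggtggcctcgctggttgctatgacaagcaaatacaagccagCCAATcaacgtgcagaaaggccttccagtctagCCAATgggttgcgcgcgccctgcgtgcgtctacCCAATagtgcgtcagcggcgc
Cdc20: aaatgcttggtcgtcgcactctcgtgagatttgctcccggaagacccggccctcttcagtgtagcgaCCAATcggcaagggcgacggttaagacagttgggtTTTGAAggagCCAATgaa
Cdk1: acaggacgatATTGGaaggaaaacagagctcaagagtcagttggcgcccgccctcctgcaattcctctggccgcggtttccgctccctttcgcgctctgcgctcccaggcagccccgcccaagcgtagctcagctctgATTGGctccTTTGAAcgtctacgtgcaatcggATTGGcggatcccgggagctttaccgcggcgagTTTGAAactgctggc
Tef, first start: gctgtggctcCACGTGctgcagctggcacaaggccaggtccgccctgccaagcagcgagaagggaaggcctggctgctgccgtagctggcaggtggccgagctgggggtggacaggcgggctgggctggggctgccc
Tef, second start: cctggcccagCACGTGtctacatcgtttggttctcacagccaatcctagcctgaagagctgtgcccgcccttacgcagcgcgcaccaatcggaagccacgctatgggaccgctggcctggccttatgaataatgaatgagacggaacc

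The genes shown differ in how they moved. Ccnb2, cyclin B2, was at 35.9 and 32.97 FPKM at P30 and 15.6 and 4.91 FPKM at P56 (log2 change -1.84, adjusted p = 0.017). Cdc20, an activator of the anaphase-promoting complex, was at 63.5 and 63.5 FPKM at P30 and 36.3 and 10.2 FPKM at P56 (log2 change -1.66, adjusted p = 0.035). Cdk1 was at 69.7 and 59.6 FPKM at P30 and 33.5 and 9.36 FPKM at P56 (log2 change -1.79, adjusted p = 0.02). In all 3 the P56 libraries were below both P30 libraries, as in every gene called lower. P56 replicate 1 was above P56 replicate 2, and none of the 3 calls held. They were picked for printing after their values were seen, for holding both elements, while Tef, at 9.08 and 8.35 FPKM at P30 and 27.9 and 25.8 FPKM at P56 (log2 change 1.52, adjusted p = 8.3e-04), holds a full E-box before each start.

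The circadian clock is a feedback loop of activators and repressors that runs in skin epithelium. Of 19 circadian clock genes 18 were tested, 8 were higher and 4 were lower (median 0.78), and 7 of the rises and none of the falls held. Nr1d1, the repressor REV-ERB alpha, was at 6.97 and 6.56 FPKM at P30 and 70.6 and 42.5 FPKM at P56 (log2 change 2.85 ± 0.36 SE, adjusted p = 7.8e-04). Dbp, an output transcription factor, was at 1.52 and 2.17 FPKM at P30 and 21.4 and 12.2 FPKM at P56 (log2 change 2.61 ± 0.33 SE, adjusted p = 7.4e-04). Npas2, an activator, was at 1.06 and 0.91 FPKM at P30 and 7.02 and 10.8 FPKM at P56 (log2 change 2.29 ± 0.26 SE, adjusted p = 4.1e-04). Arntl, which encodes BMAL1 and usually peaks opposite to Nr1d1, also rose (11.7 and 10 FPKM at P30 and 29.6 and 31.2 FPKM at P56, log2 change 1.41, adjusted p = 0.0011). Per2, a repressor, was at 6.6 and 2.73 FPKM at P30 and 1.32 and 0.79 FPKM at P56 (log2 change -1.39 ± 0.36 SE, adjusted p = 0.019), a call lost in 2 fits (adjusted p = 0.15 without P30 replicate 1), the other being the fit without P56 replicate 2, and its P30 libraries differed more from each other than its P56 libraries did. Nfil3, Bhlhe41 and Cry1, other repressors, had log2 changes of -1.08, -1.03 and -1.01, and none was called without P30 replicate 1. The time of day of tissue collection is stated nowhere in the sources, so its part was not tested.

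**Figure D5:**
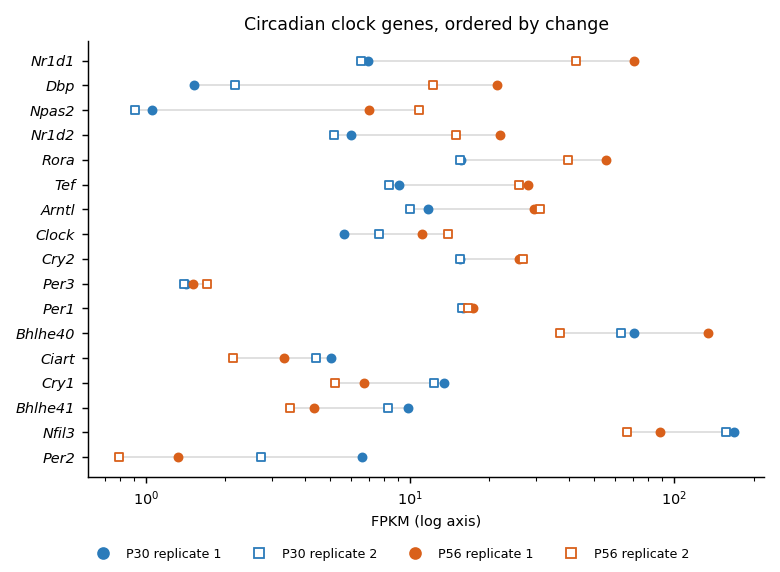
FPKM on a log axis in each wild type library (circles replicate 1, squares replicate 2; blue P30, orange P56) for tested clock genes, ordered by their change. Nr1d1, at the top, is at 6.97 and 6.56 FPKM at P30 and 70.6 and 42.5 FPKM at P56, and Per2, at the bottom, is lower at P56 with P30 libraries at 6.60 and 2.73 FPKM.

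Nuclear receptors act as transcription factors that bind hormones and lipids. Of 19 nuclear receptors 15 were tested, 7 were higher and 1 lower (median 0.88). Thra, thyroid hormone receptor alpha, was at 10.1 and 9.33 FPKM at P30 and 38.2 and 68.4 FPKM at P56 (log2 change 2.28 ± 0.33 SE, adjusted p = 0.0015). Nr3c2, the mineralocorticoid receptor, was at 0.14 and 0.15 FPKM at P30 and 2.27 and 2.74 FPKM at P56 (log2 change 1.61 ± 0.21 SE, adjusted p = 8.5e-04). Esr1, the oestrogen receptor, was at 0.21 and 0.13 FPKM at P30 and 4.37 and 1.43 FPKM at P56 (log2 change 1.63 ± 0.34 SE, adjusted p = 0.0077), a call that was lost (adjusted p = 0.052 without P30 replicate 2). Rarb, a retinoic acid receptor that retinoic acid induces, was lower (1.79 and 1.59 FPKM at P30 and 0.25 and 0.22 FPKM at P56, log2 change -1.12, adjusted p = 0.0039). All 21 genes of the JAK-STAT list were tested, 5 were higher and 3 lower (median 0.63). Prlr, the prolactin receptor, was at 7.62 and 6.97 FPKM at P30 and 35.3 and 67.5 FPKM at P56 (log2 change 2.59 ± 0.29 SE, adjusted p = 3.9e-04). Lifr was at 3.79 and 3.14 FPKM at P30 and 25.5 and 25 FPKM at P56 (log2 change 2.56 ± 0.30 SE, adjusted p = 4.7e-04). Socs2 and Jak3 rose by 2.36 and 1.72 on the log2 scale. Ghr, the growth hormone receptor, was lower at 35.7 and 33 FPKM at P30 and 15.4 and 5.13 FPKM at P56 (log2 change -1.82 ± 0.40 SE, adjusted p = 0.01), a call that was lost (adjusted p = 0.058 without P30 replicate 1). Socs1 (-1.07) was called in only 1 of the 4 fits. In the insulin-like growth factor axis, with 11 of 12 tested, the binding proteins Igfbp6 (2.32) and Igfbp2 (2.11) rose and Igfbp4 fell (315 and 292 FPKM at P30 and 109.99 and 78.6 FPKM at P56, log2 change -1.69, adjusted p = 0.0059). Igf1 was at 1.48 and 1.55 FPKM at P30 and 0.11 and 0.1 FPKM at P56, and its call was lost without either P30 library (adjusted p = 0.07 without P30 replicate 2). Of the NFAT and calcineurin genes, 10 of 12 tested, only Nfatc1 was called.

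Retinoic acid is made from stored vitamin A and acts on follicle growth. Of 14 retinoid genes 13 were tested, 5 were lower and 1 was higher (median -0.78). Lrat, which stores retinol as its ester, was at 18.3 and 17.5 FPKM at P30 and 0.6 and 0.1 FPKM at P56 (log2 change -3.83 ± 0.29 SE, adjusted p = 7.0e-05). Dhrs9, a retinol dehydrogenase, was at 16.3 and 17.1 FPKM at P30 and 0.4 and 0.54 FPKM at P56 (log2 change -3.59 ± 0.46 SE, adjusted p = 7.7e-04). Aldh1a2, which makes retinoic acid, was at 8.76 and 7.23 FPKM at P30 and 0.1 and 0.37 FPKM at P56 (log2 change -2.87 ± 0.26 SE, adjusted p = 1.5e-04). Cyp26b1, which degrades retinoic acid, went the other way, at 0.27 and 0.43 FPKM at P30 and 7.2 and 7.12 FPKM at P56 (log2 change 2.60 ± 0.23 SE, adjusted p = 1.3e-04). Of 20 glutathione and aldo-keto genes, all tested, 4 were higher and 4 lower (median 0.30). Gclc and Gclm, the 2 subunits of the enzyme that starts glutathione synthesis, fell together, Gclc from 45.1 and 42.0 FPKM to 10.4 and 10.7 FPKM (log2 change -1.95 ± 0.24 SE, adjusted p = 5.8e-04). Gclm was at 248.9 and 266 FPKM at P30 and 66.2 and 73.05 FPKM at P56 (log2 change -1.87 ± 0.18 SE, adjusted p = 1.9e-04). Txnrd1, thioredoxin reductase, was also lower (-1.65). Akr1c13 was at the lowest listed value in both P30 libraries and at 5.77 and 3.94 FPKM at P56. Nqo1 was higher (9.75 and 9.18 FPKM at P30 and 18.99 and 35.2 FPKM at P56), lost without P30 replicate 2 or P56 replicate 2 (adjusted p = 0.06 without P30 replicate 2).

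Glycolysis and respiration supply the cell's energy. Of 18 tested glycolysis genes (19 listed) 3 were higher and 1 lower (median -0.04). Hk1, hexokinase 1, was at 8.54 and 8.62 FPKM at P30 and 36.2 and 42.6 FPKM at P56 (log2 change 2.07 ± 0.21 SE, adjusted p = 2.6e-04). Aldoc and Ldhb rose by 1.34 and 1.31 on the log2 scale. Gapdh, often used as a reference gene, was at 285 and 239.5 FPKM at P30 and 154 and 108 FPKM at P56 (log2 change -1.02), and its call was lost without P30 replicate 1 or P56 replicate 2. Of 20 oxidative phosphorylation genes 1 was lower, Cox5a (-1.06, -0.96 without P56 replicate 2), with a median of -0.36, and of 20 cholesterol synthesis genes 1 was lower, Sqle (-1.13), with a median of -0.25. Heat shock genes had 3 lower and none higher of 13 (median -0.57). The mitochondrial chaperonins Hspe1 and Hspd1 fell from 337 and 340 FPKM to 135 and 121 FPKM and from 193 and 182 FPKM to 71.2 and 71.9 FPKM (log2 change -1.40, adjusted p = 4.0e-04 for Hspe1), and Hsph1 was lower in a call lost without P30 replicate 2 (adjusted p = 0.053). In the unfolded protein response, Hspa5, the main chaperone of the endoplasmic reticulum, was at 791 and 789 FPKM at P30 and 358 and 260.46 FPKM at P56 (log2 change -1.37 ± 0.23 SE, adjusted p = 0.0027), among 2 lower and 1 higher of 14.

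Immediate early genes respond within minutes to handling and dissociation. Of 19 tested, 3 were higher (Klf4 1.26, Dusp1 1.08, Fosb 1.02) and Egr3 was lower (-1.06), none of which held. Their summed level was 13210 and 12080 FPKM at P30 and 19010 and 10580 FPKM at P56, so the ages overlapped.

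Secreted immune signals changed in both directions, 4 higher and 3 lower of 17 tested (21 listed, median 0.69). Ccl27a, a chemokine of keratinocytes with near-identical copies in the genome that make its value uncertain, was at 829 and 749 FPKM at P30 and 6668 and 5326 FPKM at P56 (log2 change 2.92 ± 0.15 SE, adjusted p = 1.7e-05). Cd200, an immune-restraining surface protein of bulge cells, was at 45.95 and 47.3 FPKM at P30 and 104 and 149 FPKM at P56 (log2 change 1.40 ± 0.21 SE, adjusted p = 0.0017). Cxcl14 and Cxcl16 rose in calls that did not hold (1.23 and 1.14). Cxcl12 was lower at 182 and 173 FPKM at P30 and 54.4 and 51.8 FPKM at P56 (log2 change -1.72 ± 0.24 SE, adjusted p = 0.0011). Cxcl1 was at 57.1 and 56.2 FPKM at P30 and 17.7 and 11.3 FPKM at P56 (log2 change -1.93 ± 0.36 SE, adjusted p = 0.0045). Of 20 interferon response genes 10 were tested and 3 were lower, among them Cxcl10 (49.8 and 46.1 FPKM at P30 and 12.8 and 6.48 FPKM at P56, log2 change -2.27, adjusted p = 7.1e-04) and Irf7 (-1.84), the first of which held. Of 9 MHC class I presentation genes 1 was higher, Psmb9 (1.56), in a call lost without P56 replicate 1 and without P30 replicate 2. The S100 list had 2 higher, S100a4 and S100a10 (437 and 408 FPKM at P30 and 1282 and 1433 FPKM at P56), and 2 lower, S100b (14.8 and 17.1 FPKM at P30 and 1.06 and 0.53 FPKM at P56) and S100a1 (-1.15), of 13 tested.

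The bulge is also a target of sensory nerves. Ntf3, neurotrophin 3, was at 0.28 and 0.95 FPKM at P30 and 9.15 and 11.8 FPKM at P56 (log2 change 2.85 ± 0.26 SE, adjusted p = 1.6e-04). Bdnf, brain-derived neurotrophic factor, was at 0.29 and 0.28 FPKM at P30 and 3.47 and 7.22 FPKM at P56 (log2 change 2.24 ± 0.30 SE, adjusted p = 0.001). Sema3c was higher (18.5 and 19 FPKM at P30 and 79.03 and 66.3 FPKM at P56), and the guidance factors Ntn4 (11.4 and 14.2 FPKM at P30 and 1.09 and 0.67 FPKM at P56, log2 change -2.88, adjusted p = 1.4e-04), Ntn1 (-1.93), Slit3 (-1.74) and Sema3f (-1.59) were lower, among 15 tested of 22 listed. Ntn4 and Ntn1 held, Slit3 was lost without P30 replicate 1 and Sema3f was called only without P56 replicate 1. Of 18 Polycomb and DNA methylation genes, all tested, 3 were higher and 1 lower (median -0.03). Cbx7, a chromodomain subunit of Polycomb complex 1, was at 1.3 and 1.28 FPKM at P30 and 9.1 and 14.3 FPKM at P56 (log2 change 2.44 ± 0.33 SE, adjusted p = 9.5e-04). Uhrf1, which maintains DNA methylation at replication, was at 41.4 and 41.02 FPKM at P30 and 16.2 and 7.68 FPKM at P56 (log2 change -1.79 ± 0.38 SE, adjusted p = 0.0081).

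Cd44, a receptor for hyaluronan and osteopontin, was at 69.3 and 65.6 FPKM at P30 and 68.8 and 52.2 FPKM at P56 with a log2 change of -0.17 ± 0.17 (SE), and its ligand Spp1, osteopontin, was at the lowest listed value in 3 libraries and at 1.05 FPKM in P56 replicate 1. The interaction term of the same model contains the wild type change, in which age and sex cannot be told apart. Sex markers of the mutant libraries are not given here, and the part of sex was not tested. By that term the change from P30 to P56 differed between genotypes in 969 genes (8.31% of those tested). The count was 364 and 375 without wild type P30 replicates 1 and 2, and 580 and 512 without mutant P30 replicates 1 and 2.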

How the data were processed

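Full-length cDNA was made from sorted bulge cells and sequenced. The authors aligned the reads with STAR (version 2.4.2 in the submitters' processing notes, which name GRCm38 and mm10) and deposited 1 table of FPKM values per gene, estimated with RSEM, in which no value lies below 0.1. It holds no counts, so the depth of each library, counting intervals and floors cannot be given from it.

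Samples were grouped by their labels. FPKM was transformed as log2(FPKM + 1), and limma 3.58.1 (R 4.3.3, lmFit and eBayes with a variance trend) was fitted to all 8 bulge libraries (4 groups of 2). The contrast was wild type P56 minus P30, two-sided, with Benjamini-Hochberg adjustment over the 11666 genes, and a gene was called at an adjusted p under 0.05 and a change of 2-fold or more. The interaction contrast was the change in mutant bulge minus the change in wild type bulge. The fit was tested on simulated data that gave a gene the same spread in every library. The unequal spread of the P30 and P56 libraries was therefore not part of that test.

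The members and the 60 gene lists were chosen with earlier results of these data known. Lists are described by counts and medians, without a set test. Genes were named as the 12 largest rises and the 12 largest falls among called genes with a group mean of 5 FPKM or more and libraries that did not overlap, up to 4 called members per list and direction (the 2 most abundant where none was called), and a fixed set of bulge and cell cycle genes whatever their values. Any other gene named was chosen after its values were seen.

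Alternatives were other pseudocounts, filters, scalings, gene sets and variance models, the 4 wild type libraries alone, a replicate block, and each library left out in turn. Gene positions came from GENCODE (GRCm38) by gene identifier. Promoter sequences came from RefSeq on GRCm38.p6, and 8821 of 11661 tested symbols matched. Replicate numbers were not taken to pair the libraries: differences between replicates 1 and 2 of wild type bulge at P30 and at P56 correlated at 0.0208 across genes, and those of the 6 pairs of groups at -0.00127 to 0.192, the highest between wild type and mutant at P56. The tables of other cell types were not used here, and some called list members are not reported here by name.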

Additional observations from a re-analysis of the deposited data

Results flagged for a closer look

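The change with age differed between wild type and mutant bulge cells in 969 genes by the interaction term of the limma model (adjusted p under 0.05 and 2-fold or more), and in 364 and 375 without wild type P30 replicates 1 and 2. Among the 24 genes with the largest wild type change, 23 were called in it. They were picked by the size of the wild type change, which enters the interaction, so the values below are a description. The wild type ages also differed in sex markers, and the part of sex in these values was not tested. A negative value means that the rise in wild type cells was larger than the change in mutant cells, and a positive value that the fall was larger. The interaction log2 value was -5.10 for Cck, -3.52 for Akr1c18, -5.34 for S100a4, -3.82 for Myoc, -3.82 for Tgm5, -4.72 for Col8a2 and -3.62 for Sncg. It was -6.48 for Serpina3i, -4.63 for Il31ra, -6.42 for Col6a1 and -4.01 for Chat. For genes of the inner root sheath and its neighbours it was 6.21 for Krt71, 6.75 for Gjb2, 4.85 for Krt25, 4.96 for Krt27, 5.09 for Krt28 and 4.55 for Krtap8-1. It was 5.65 for Cmah, 6.22 for Fgf5, 5.88 for Rnase12, 5.23 for Csn3, 6.42 for Sprr4 and 5.54 for Slc7a8. Genes of the fixed set named whatever their values follow only where the interaction was called. The interaction log2 value was -3.29 for Cd34, 1.58 for Cdh3, -1.87 for Krt15 and -3.16 for Nfatc1. For Fgf18, Ccnd1 and Cdkn2b it was -3.02, 1.14 and 1.71. Krt14, Lgr5, Sox9, Lhx2, Bmp6, Gli1, Mki67, Ccnd2, Cdkn1a, Cdkn1b, Cdkn1c and Cd44, also tested from that set, were not called in it.

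Outside the genes tested, Xist reached 30.2 FPKM in 1 P56 library and Ddx3y 18.5 FPKM in 1 P30 library, each near the lowest listed value at the other age.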

How the results depend on the processing

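The depth of each library is not in the table, so low FPKM values carry an error that cannot be computed. With each wild type or mutant library left out in turn, 1465 to 2492 genes were called, 895 to 1421 higher and 548 to 1071 lower. The lower count moved most without P30 replicate 1 (548) and the higher count without P30 replicate 2 (895), both by more than 1.5 times. The interaction count ranged from 364 to 1232 and was 364 and 375 without wild type P30 replicates 1 and 2 and 580 and 512 without mutant P30 replicates 1 and 2. The mutant fits and all interaction alternatives were chosen after seeing the data. The cause was not tested. Where 1 library of a group was left, it was assumed to vary like the other groups. The other settings kept the number of calls between 1701 (filter of 5 FPKM) and 2576 (pseudocount of 0.1 FPKM), and the replicate block gave 2252 calls and 1127 interaction calls. The share of calls that were higher was 51.5% under median rescaling and 53.5% under upper quartile scaling. Of named genes, 7 changed sign without 1 P56 library and none of them was called. With 1 library left out the log2 change ranged from -0.20 to 0.055 for Enpp2, -0.53 to 0.085 for Egfl7, -0.29 to 1.35 for Nkg7, -0.0051 to 0.29 for Bmp6, -0.17 to 0.70 for Gli1, -0.15 to 0.44 for Cdkn1a and -0.36 to 0.028 for Cd44. Leaving out a library gave 191 lost calls among named genes and 45 lost calls came from the other settings.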
